A study of Mus musculus with 12 samples.

Results

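RNA of 9 genes that mark secretory, mucous, basal and neuroendocrine cells of the conducting airways was measured in newborn mouse lung and liver. The 9 genes were chosen by name, as *Scgb1a1*, *Scgb3a1*, *Scgb3a2*, *Muc5b*, *Spdef*, *Trp63*, *Krt5*, *Calca* and *Sox2*, and all 9 were found among the 24421 genes counted. The 12 libraries came from wild-type pups (WT, *Man1a2*+/+) and from homozygous null pups (*Man1a2*-/-, labelled knockout), with 3 pups of each genotype for lung and for liver. The pups were offspring of heterozygous parents carrying the Man1a2tm1.1Ahe allele, in which exon 2 of *Man1a2* is deleted, and tissue was taken 30 to 60 minutes after birth. *Man1a2* encodes a Golgi mannosidase that trims N-linked glycans, and null pups are known to die at birth with lungs that fail to expand.

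The conducting airways are lined by ciliated cells and by secretory cells, which release secretoglobins, small proteins of the airway lining fluid. Mucous (goblet) cells release gel-forming mucins, basal cells are the stem cells of the trachea and large bronchi, and rare neuroendocrine cells release peptides. In the mouse, basal cells are normally confined to the trachea and the main bronchi. In whole tissue, more cells of a type and more RNA per cell cannot be told apart.

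Reads per library ranged from 26759463 to 42914295, and 3 reads, taken as the smallest level that can be read in 1 library, stood at 0.0702 to 0.113 CPM (read counts relative to library totals scaled with TMM factors). *Man1a2* read 99.4 to 141 CPM in WT lungs and 56.3 to 66.3 in null lungs, and 40.6 to 67.5 in WT livers and 36.8 to 40.2 in null livers. Counts of a whole gene include reads outside the deleted exon. Null lung 1 stood apart: over all genes its log2 CPM correlated at 0.839 to 0.860 with the other 5 lungs, which correlated at 0.965 to 0.994 among themselves. It also went against its tissue label, since *Sftpc*, the surfactant protein gene of alveolar type 2 cells, read 35.03 CPM there and 15720 to 22450 CPM in the other lungs. It was therefore set apart, as the choice of these genes asked, and null lungs 2 and 3 were compared with the 3 WT lungs.

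In null lungs 2 and 3, *Scgb3a1* (11.7-fold), *Muc5b* (8.52-fold), *Scgb3a2* (2.34-fold) and *Spdef* (2.26-fold) were higher than in WT lungs. *Scgb1a1*, *Calca*, *Sox2* and *Trp63* did not pass the test, and *Krt5* had too few reads to be tested. A gene was called when the adjusted p-value of edgeR's quasi-likelihood test was under 0.05 and the change was at least 1.2-fold, the study's own cut-off. Of the 8 genes that passed the filter on low counts 4 were called, beside 37.0% of all 15885 genes tested, and all 4 were higher in null, beside 18.0% of all genes. The groups did not overlap, with null higher, for the same 4 genes and for 29.5% of all genes. In size, only 0.0252% of the genes tested had a larger rise than *Scgb3a1*, 0.0441% than *Muc5b*, 3.20% than *Scgb3a2* and 3.56% than *Spdef*. With all 6 lungs in the fit edgeR called 0 of the 7 genes tested, beside 0.327% of 15591 genes, and 4 had an unadjusted p under 0.05, beside 25.0% of those genes. DESeq2 called *Scgb3a2* and *Spdef* in the same 6 lungs, beside 11.8% of 20021 genes, and gave no adjusted p to 5 of the 9 genes.

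**Figure D1:**
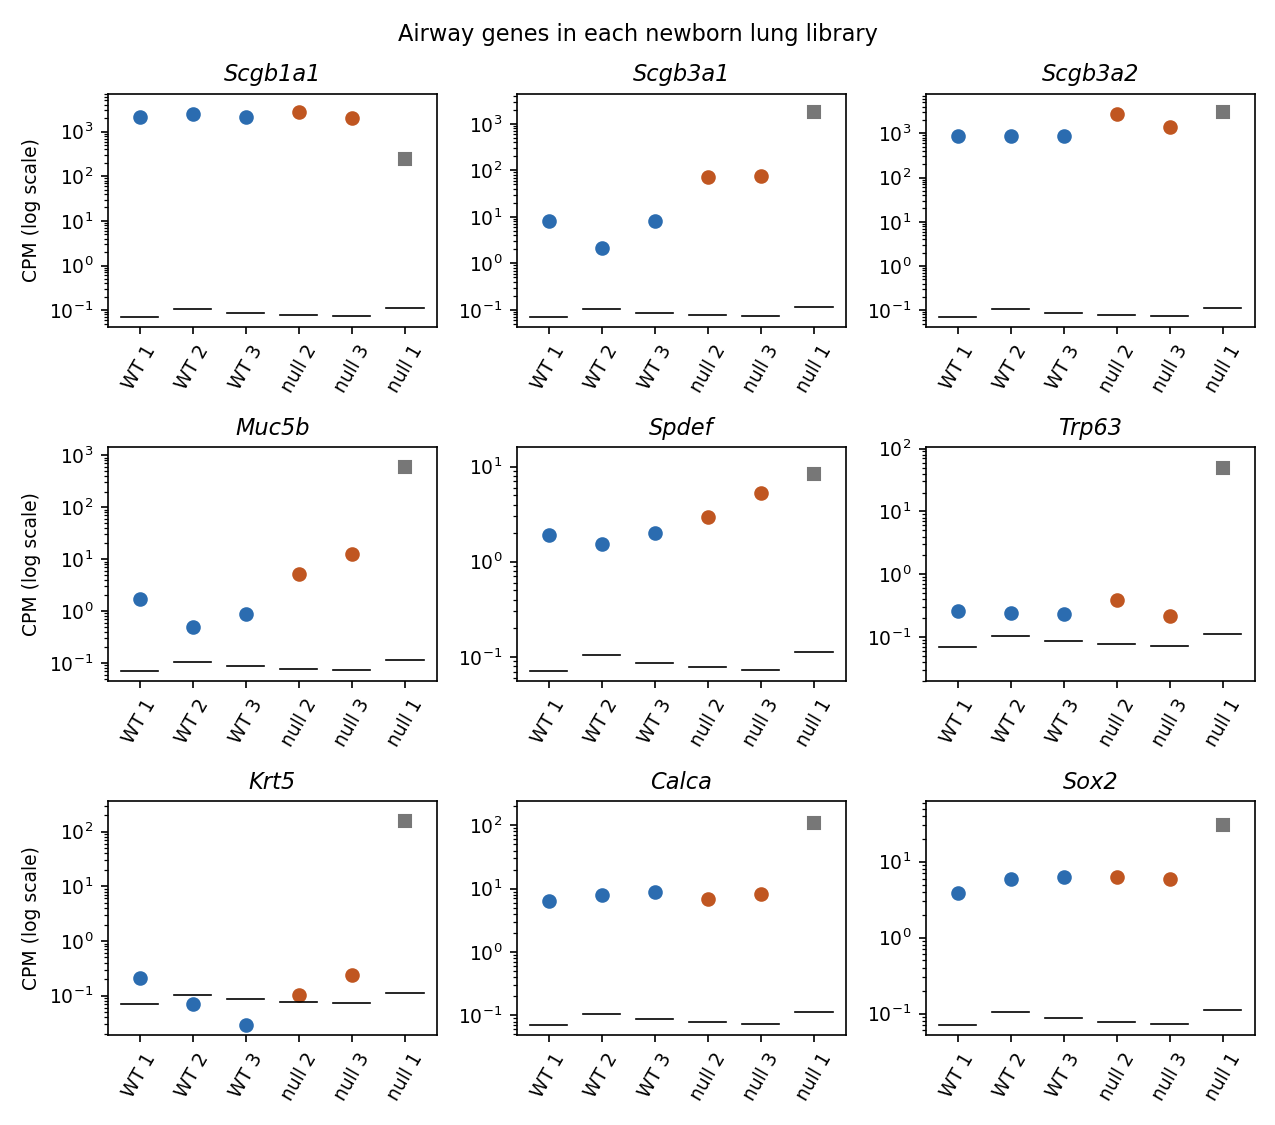
CPM on a log scale for each of the 9 genes in each lung library. Blue circles are WT lungs, orange circles null lungs 2 and 3, the grey square is null lung 1, and black dashes mark 3 reads. Null lung 1 lies far above the other lungs for *Muc5b*, *Trp63*, *Krt5* and *Calca* and below them for *Scgb1a1*, while null lungs 2 and 3 lie above WT for *Scgb3a1*, *Scgb3a2*, *Muc5b* and *Spdef*.

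**Figure D2:**
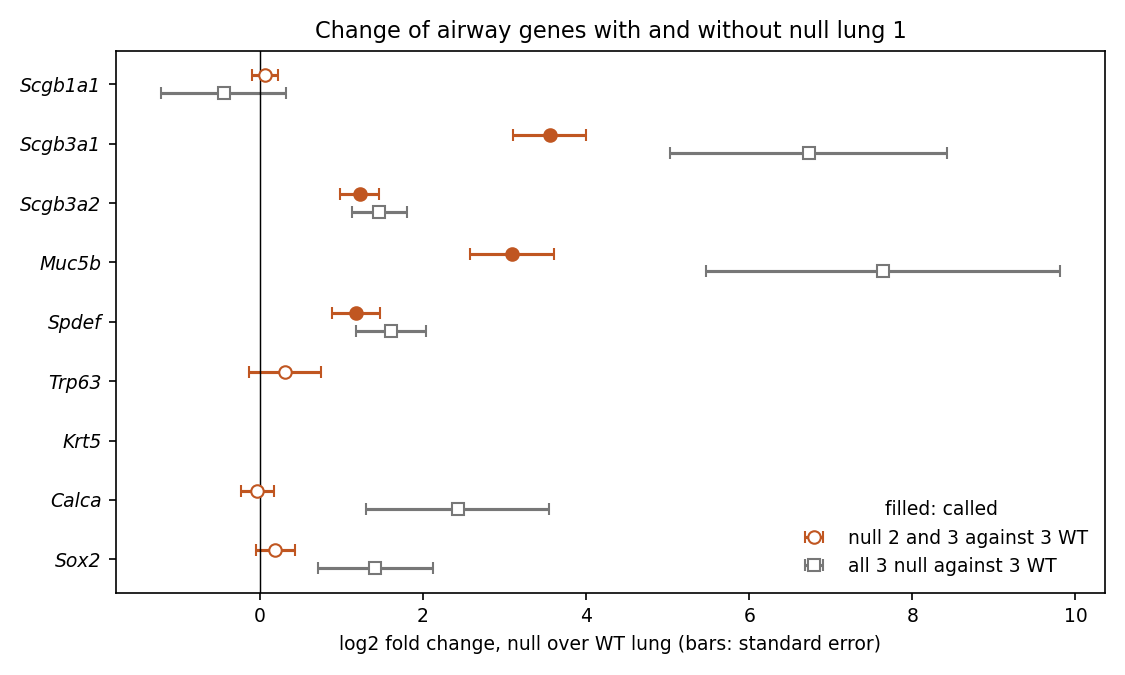
Log2 fold change, null over WT lung, with standard errors from edgeR. Orange circles compare null lungs 2 and 3 with 3 WT lungs, grey squares all 3 null lungs with 3 WT lungs, and filled symbols were called. The standard error of *Scgb3a1* is 0.444 without null lung 1 and 1.70 with it.

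Among the secretoglobins, *Scgb1a1* (chr19:9083636-9087958, minus strand, GRCm38) encodes the club cell secretory protein, and it was the most abundant of the 9 genes in WT lungs. It read 2153, 2546 and 2170 CPM in WT lungs 1 to 3, 2811 and 1984 CPM in null lungs 2 and 3, and 249.7 CPM in null lung 1. Null lungs 2 and 3 lay on either side of the WT lungs, while null lung 1 was 9.17-fold below the WT mean. The log2 fold change without null lung 1 was 0.07 (SE 0.158, 95% interval -0.30 to 0.43, adjusted p = 0.770 by edgeR's quasi-likelihood test). These limits correspond to 0.811-fold and 1.35-fold.

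*Scgb3a1* (chr11:49663610-49665118, plus strand) encodes a secretoglobin of the large airways. It read 7.98, 2.11 and 8.32 CPM in WT lungs 1 to 3 (341, 61 and 287 reads) and 70.2 and 75.6 CPM in null lungs 2 and 3. The groups did not overlap, and null lung 1 was higher again, at 1801 CPM, 293-fold above the WT mean. Without null lung 1 the log2 fold change was 3.55 (SE 0.444, 95% interval 2.52 to 4.59, adjusted p = 0.00161 by edgeR). The exact permutation test gave p = 0.2, the smallest value that 3 libraries against 2 allow. With all 6 lungs the log2 fold change was 6.73 (SE 1.70, adjusted p = 0.0960 by edgeR).

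*Scgb3a2* encodes a secretoglobin that is produced early in lung development and lies downstream of the lung factor NKX2-1. It read 872.9, 868.5 and 862.9 CPM in WT lungs, which were almost alike, 2694 and 1367 CPM in null lungs 2 and 3, and 3116 CPM in null lung 1. Null lungs 2 and 3 were above all 3 WT lungs, and so was null lung 1, which is given apart. The log2 fold change was 1.23 (SE 0.240, 95% interval 0.67 to 1.78, adjusted p = 0.00742 by edgeR) without null lung 1 and 1.47 (SE 0.343, adjusted p = 0.0879) with it.

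There were 2.47, 2.93 and 2.52 *Scgb1a1* reads for each *Scgb3a2* read in WT lungs, 1.04 and 1.45 in null lungs 2 and 3, and 0.0801 in null lung 1. The mean ratio was 2.64 ± 0.256 (SD, n = 3) in WT and 1.25 ± 0.288 (SD, n = 2) in null lungs 2 and 3, and the groups did not overlap. The exact permutation test gave p = 0.2 for 3 libraries against 2 and p = 0.1 for 3 against 3, in each case the smallest possible. The latter counts null lung 1, which goes against its tissue label. Per kilobase of exon, *Scgb3a1* made up 0.0558% to 0.251% of the summed secretoglobin signal in WT lungs, 1.29% and 2.16% in null lungs 2 and 3, and 42.6% in null lung 1. *Scgb3a2* made up 15.6% to 17.9% in WT lungs, 33.7% and 26.6% in null lungs 2 and 3, and 50.04% in null lung 1.

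**Figure D3:**
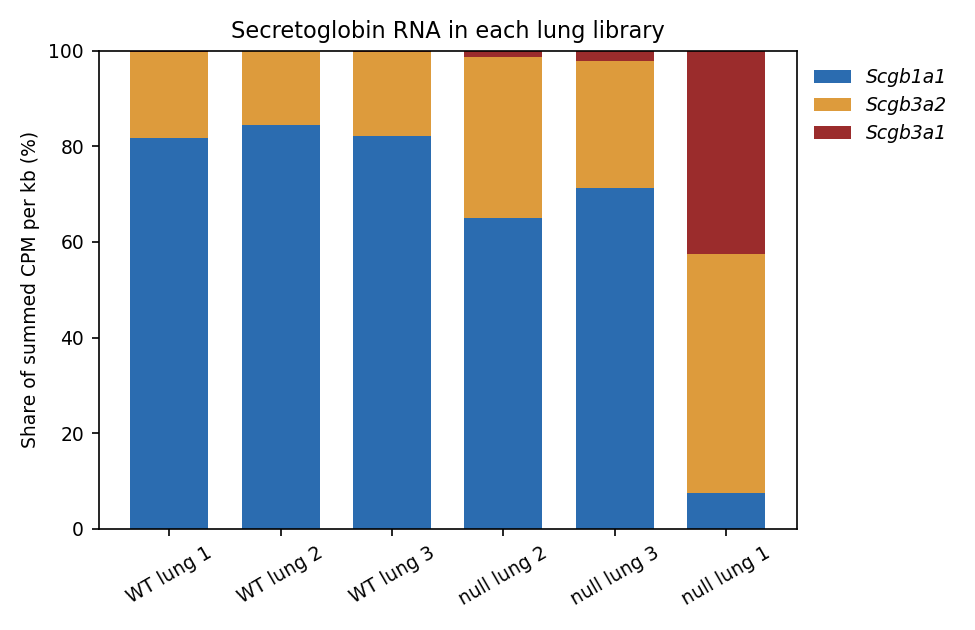
Share of each secretoglobin in the summed CPM per kilobase of exon of *Scgb1a1*, *Scgb3a2* and *Scgb3a1*, in percent, for each lung library. *Scgb1a1* takes 81.8% to 84.4% in WT lungs, 65.0% and 71.3% in null lungs 2 and 3, and 7.41% in null lung 1.

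The mucous genes rose as well. *Muc5b* (chr7:141839070-141873084, plus strand) encodes the gel-forming mucin of airway mucus and *Spdef* (chr17:27714352-27728955, minus strand) the ETS-family factor that drives mucous differentiation. *Muc5b* read 1.68, 0.485 and 0.870 CPM in WT lungs (72, 14 and 30 reads), 5.12 and 12.6 CPM in null lungs 2 and 3, and 596.8 CPM in null lung 1. The groups did not overlap, and the last library stood 589-fold above the WT mean. Its log2 fold change was 3.09 (SE 0.519, 95% interval 1.88 to 4.30, adjusted p = 0.00425 by edgeR) without null lung 1 and 7.64 (SE 2.17, adjusted p = 0.116) with it. The 8.52-fold rise was 4.98-fold when null lung 3 was also left out and 12.9-fold when WT lung 1 was, and both were still called.

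*Spdef* read 1.89, 1.53 and 2.00 CPM in WT lungs, 2.95 and 5.24 CPM in null lungs 2 and 3, and 8.35 CPM in null lung 1. Null lungs 2 and 3 lay above all WT lungs, and so did null lung 1, which is given apart. Its log2 fold change was 1.18 (SE 0.296, 95% interval 0.49 to 1.87, adjusted p = 0.0188 by edgeR) without null lung 1 and 1.61 (SE 0.433, adjusted p = 0.108) with it. The call was lost without WT lung 2 (adjusted p = 0.0571), WT lung 3 (0.0535) or null lung 3 (0.0965, with a log2 fold change of 0.72).

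The promoters of *Scgb3a1* and *Spdef*, from 250 bases before to 50 bases after the start site, are shown because these genes rose together and RefSeq gives a sequence for both. The promoter of *Scgb3a2* was left out of the search and is not reported here. Those of 5 of the 9 genes were used (*Scgb3a1*, *Spdef*, *Krt5*, *Calca* and *Sox2*). They were searched on both strands for the NKX2-1 core CAAGTG and for the FOXA cores TGTTTAC and TATTTAC, whose matches are in capitals. An ETS core (CCGGAA or CAGGAA) and a SPDEF-type ETS core (CCGGAT or CAGGAT) were searched too, without capitals. The NKX2-1 core was found in 13.6% of 32851 RefSeq promoters and a FOXA core in 6.54%. An ETS core was found in 41.4% and a SPDEF-type ETS core in 21.3%. The *Scgb3a1* promoter (chr11:49663345-49663644, plus strand, GRCm38.p6) held an NKX2-1 core at -174 from the start site, and the *Spdef* promoter (chr17:27728902-27729201, minus strand) a FOXA core at -47. The other 3 promoters held neither of these 2 kinds of core. ETS cores lay in the promoters of *Scgb3a1* (-194 and 15), *Spdef* (33) and *Sox2* (-38), and a SPDEF-type ETS core in that of *Spdef* (-214). These are matches of letters and not binding sites.
Scgb3a1: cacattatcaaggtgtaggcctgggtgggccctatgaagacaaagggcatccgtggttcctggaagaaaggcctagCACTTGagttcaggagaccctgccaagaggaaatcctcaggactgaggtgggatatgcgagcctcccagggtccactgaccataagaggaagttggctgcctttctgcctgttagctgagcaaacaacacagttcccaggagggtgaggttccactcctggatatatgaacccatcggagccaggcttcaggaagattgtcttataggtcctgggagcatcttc
Spdef: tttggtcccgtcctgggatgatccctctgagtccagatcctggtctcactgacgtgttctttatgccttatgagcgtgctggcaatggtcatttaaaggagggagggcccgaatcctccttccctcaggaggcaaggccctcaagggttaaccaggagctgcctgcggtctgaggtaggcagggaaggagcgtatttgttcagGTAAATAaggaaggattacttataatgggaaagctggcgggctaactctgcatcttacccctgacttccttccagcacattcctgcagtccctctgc

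The basal cell genes stayed near the limit of detection outside null lung 1. *Trp63* (chr16:25683763-25892102, plus strand) encodes the factor that maintains basal cells and *Krt5* (chr15:101707070-101712898, minus strand) their intermediate filament keratin. *Trp63* read 0.257, 0.243 and 0.232 CPM in WT lungs (11, 7 and 8 reads), 0.392 and 0.219 CPM in null lungs 2 and 3 (15 and 9 reads) and 49.9 CPM in null lung 1 (1327 reads). Null lungs 2 and 3 lay on either side of the WT lungs, with a log2 fold change of 0.31 (SE 0.442, 95% interval -0.72 to 1.34, adjusted p = 0.612 by edgeR). *Krt5* had 9, 2 and 1 reads in WT lungs, 4 and 10 in null lungs 2 and 3, and 4115 in null lung 1. In that library *Trp63* was 205-fold above the WT mean and *Krt5* read 154.8 CPM, against at most 0.244 CPM in the other lungs. *Krt5* overlaps exons of *Gm44323*, which the annotation places on the opposite strand, and the strand setting of the counting is not given in the sources used here, so its reads cannot be told apart from those of that gene.

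*Calca* and *Sox2* did not differ beyond their spread outside null lung 1. *Calca* (chr7:114631478-114636357, minus strand) encodes calcitonin gene-related peptide, a product of neuroendocrine cells and sensory neurons, and also calcitonin, a product of thyroid C cells. It read 6.34, 7.97 and 9.02 CPM in WT lungs, 6.97 and 8.23 CPM in null lungs 2 and 3, and 109.6 CPM in null lung 1. Its log2 fold change was -0.03 (SE 0.206, 95% interval -0.51 to 0.45, adjusted p = 0.920 by edgeR). *Calca* and *Calcb* are closely related, and how reads that fit both were counted is not given in the sources used here. *Sox2* (chr3:34650405-34652461, plus strand), the factor that sets the proximal airway lineage, lies inside the non-coding gene *Sox2ot* without sharing exons. It read 3.91, 5.89 and 6.29 CPM in WT lungs, 6.34 and 5.87 CPM in null lungs 2 and 3, and 30.5 CPM in null lung 1. Its log2 fold change was 0.19 (SE 0.241, 95% interval -0.37 to 0.75, adjusted p = 0.565 by edgeR).

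Per kilobase of exon, levels in WT lungs fell from *Scgb1a1* (4811 ± 467 CPM per kb, SD, n = 3) to *Scgb3a2* (987 ± 5.71) and then *Scgb3a1* (10.3 ± 5.84), *Calca* (4.62 ± 0.803), *Sox2* (2.61 ± 0.622), *Spdef* (0.784 ± 0.108), *Muc5b* (0.0677 ± 0.0409), *Krt5* (0.0469 ± 0.0434) and *Trp63* (0.0291 ± 0.00151). The libraries of *Scgb3a1* overlapped those of *Calca*, and those of *Krt5* overlapped both those of *Muc5b* and those of *Trp63*. These neighbours did not differ beyond their spread, while every *Muc5b* value lay above every *Trp63* value. In null lung 1 the order was *Scgb3a2* (3541), *Scgb3a1* (3011), *Scgb1a1* (524.5), *Krt5* (70.5), *Calca* (65.1), *Muc5b* (39.9), *Sox2* (14.8), *Trp63* (5.95) and *Spdef* (3.62).

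Since the epithelial share of a lung piece can differ, the genes were also set against the summed CPM of 14 general epithelial genes. That sum itself read 3433 and 3256 CPM in null lungs 2 and 3 against 2727 to 3191 in WT lungs. Of its 14 genes 5 (35.7%) were called higher and 1 (7.14%) lower, beside 18.0% and 19.0% of all genes. *Scgb3a1* stood at 0.0775% to 0.283% of that sum in WT lungs and at 2.05% and 2.32% in null lungs 2 and 3, a difference of 3.61 on the log2 scale. For *Muc5b* the difference was 2.97, for *Scgb3a2* 0.94 and for *Spdef* 0.93, and the WT and null libraries did not overlap. For *Scgb1a1* it was -0.15, for *Calca* -0.23, for *Sox2* 0.01 and for *Trp63* 0.06. *Krt5*, with 1 to 10 reads, differed by 0.88 with overlapping libraries.

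Markers of the same cell types were also taken as lists, which include the 9 genes themselves. Counts are given beside 18.0% of all genes called higher, 19.0% called lower and a median log2 fold change of -0.01 over all genes. Of the 91 genes of the 6 airway lists that were tested 42.9% were called, beside 37.0% of all genes. The 4 genes called above are counted in that share. Of 22 secretory genes tested, 8 (36.4%) were higher and 4 (18.2%, near the share over all genes) lower in null lungs 2 and 3 (median 0.25). Among those higher were *Scgb3a1* and *Scgb3a2* themselves. *Reg3g*, an antimicrobial lectin, rose 16.8-fold (log2 fold change 4.07, SE 0.589, adjusted p = 0.00252 by edgeR). It read 2.99, 0.936 and 7.43 CPM in WT lungs, 60.0 and 68.4 CPM in null lungs 2 and 3, and 1367 CPM in null lung 1. *Bpifb1*, a secreted airway defence protein, rose 5.28-fold (adjusted p = 0.0133 by edgeR), while the xenobiotic oxidase *Fmo2*, the cholecystokinin receptor *Cckar* and the retinal oxidase *Aldh1a1* fell to 0.660, 0.479 and 0.545 of WT. *Cyp2f2*, a club cell cytochrome, had a log2 fold change of -0.67 that did not pass (adjusted p = 0.126 by edgeR).

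Of 8 goblet genes tested, 4 were higher and 0 lower (median 0.94). Besides *Muc5b* and *Spdef* these were *Agr2*, a disulfide isomerase needed for mucin folding (4.37-fold, adjusted p = 0.0116 by edgeR), and *Muc4*, a membrane mucin (2.37-fold, adjusted p = 0.0161). *Muc5ac*, the other gel-forming mucin of the airway, read 0.268 to 0.589 CPM in those 5 lungs, with a log2 fold change of -0.02 (adjusted p = 0.977 by edgeR). *Tff2* and *Clca1*, other goblet products, read at most 0.219 CPM in the same lungs.

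Of 11 basal genes tested, 2 were higher (18.2%, near the share over all genes) and 0 lower (median -0.02). These were *Perp*, a desmosome protein (3.51-fold, adjusted p = 0.000339 by edgeR), and *Aqp3*, a water channel (1.64-fold, adjusted p = 0.0452), and neither is particular to basal cells. *Dsg3*, which basal and squamous cells express, had 0 reads in the 3 WT lungs and in null lung 2 and 0.0244 CPM in null lung 3, against 44.3 CPM in null lung 1. Of 17 neuroendocrine genes tested, 0 were higher and 3 lower (17.6%, near the share over all genes), with a median of -0.03 and with *Calcb* at 0.220 of WT (adjusted p = 0.0135 by edgeR) and *Uchl1*, a neuronal ubiquitin hydrolase, at 0.572 (adjusted p = 0.0162). *Chga*, a granule protein of neuroendocrine cells, read 0.327 to 0.463 CPM in those 5 lungs and 441.6 CPM in null lung 1.

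Of 12 airway and lung epithelial transcription factors tested, 4 were higher and 2 lower (median 0.27). *Sox21*, a SOX factor of the airway, rose 3.86-fold (adjusted p = 0.00774 by edgeR), and the ETS factors *Ehf* (2.04-fold) and *Elf3* (1.48-fold) rose too. *Grhl2* and *Foxa2*, both factors of epithelial identity, fell to 0.522 and 0.625 of WT, while *Nkx2-1* had a log2 fold change of 0.00 (adjusted p = 0.988 by edgeR). Of 22 genes of the Notch pathway, which sets the choice between secretory and ciliated fates, 6 (27.3%) were higher and 6 (27.3%) lower, beside 18.0% and 19.0% of all genes (median -0.03). *Notch2*, the receptor used in secretory fate, rose 2.29-fold (adjusted p = 0.00120 by edgeR), as did the coactivators *Maml3* (2.03-fold) and *Maml1* (1.92-fold). The target *Heyl* (0.219 of WT, adjusted p = 0.000665 by edgeR), the receptor *Notch4* (0.536) and the feedback regulator *Nrarp* (0.581) fell. With all 6 lungs, edgeR called 0 of the 89 genes of these 6 lists that were tested, beside 0.327% of all genes. An unadjusted p under 0.05 was found for 30 of the 89, beside 25.0% of all genes, and DESeq2 called 18, beside 11.8%.

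**Figure D4:**
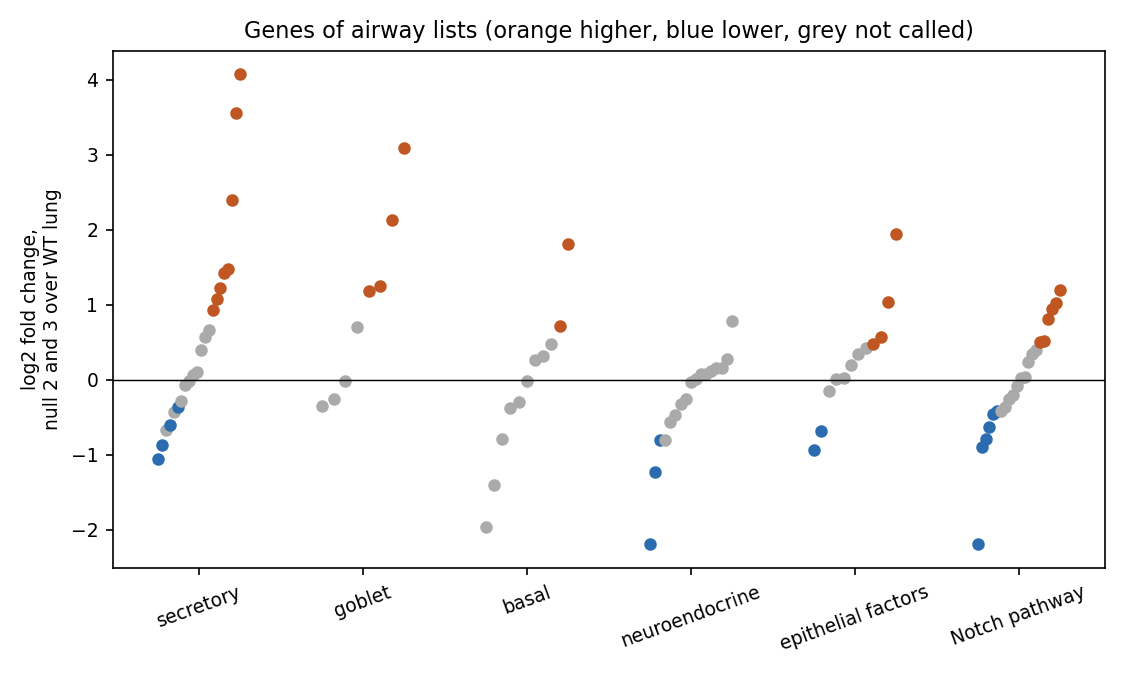
Log2 fold change, null lungs 2 and 3 over 3 WT lungs, of each tested gene of the 6 airway lists, ordered within a list. Orange points were called higher, blue points called lower and grey points were not called. The goblet list has 4 orange and 0 blue points and the neuroendocrine list 0 orange and 3 blue.

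Markers of other tissues were read in the same libraries, since null lung 1 went against its tissue label. In null lung 1, *Tg*, the thyroglobulin of the thyroid, read 2647 CPM against 1.25 to 4.12 in the other lungs, *Krt4*, a keratin of the oesophagus, read 971.5 against 0.731 to 1.21, and *Acta1*, the actin of skeletal muscle, read 5040 against 5.61 to 9.95. The cartilage collagen *Col2a1* read 322.4 CPM there. The summed alveolar type 2 list of 10 genes read 259 CPM in null lung 1 and 29450 to 37890 in the others. Values of null lung 1 are therefore given apart throughout. The part of the other tissues in its airway RNA was not tested.

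Null lungs 2 and 3 carried lesser differences in such lists, clearest in the muscle lists and not always in the direction of null lung 1. Called higher were 85.7% of the heart and 57.1% of the skeletal muscle genes, beside 18.0% of all genes. For the type 2, cartilage and squamous lists the share called higher was 20%, 28.6% and 10%. Called lower in these lists were 10%, 14.3% and 10%, beside 19.0% of all genes. All 10 type 2 genes were tested, with 2 higher and 1 lower and a summed level of 37890 and 29830 CPM against 29450 to 33960 in WT. The heart muscle list had 6 of 7 genes higher (969.5 and 790.8 CPM against 353.8 to 581.5) and the skeletal muscle list 4 of 7 (73.7 and 58.2 CPM against 25.2 to 33.2). *Nppa* of the first and *Acta1* of the second, at 7873 and 5040 CPM in null lung 1, did not pass (adjusted p = 0.635 and 0.460 by edgeR). The neuron list summed to 46.2 and 43.5 CPM against 68.2 to 84.25 in WT, and to 109.9 CPM in null lung 1. Of its 7 genes tested, 0 were higher and 2 lower. Of 7 cartilage genes tested, 2 were higher and 1 lower, with *Col2a1* at 0.705 and 3.82 CPM against 0.208 to 0.351 and *Matn3* at 0.300 of WT. Of 10 squamous genes tested, 1 was higher and 1 lower (median -0.32). *Krt13*, a keratin of squamous epithelium, read 4.202 and 1.413 CPM against 0.624 to 0.638, *Krtdap* fell to 0.189 of WT, and *Krt4* did not pass (log2 fold change -0.41, adjusted p = 0.337 by edgeR). The thyroid list summed to 4.57 and 2.75 CPM against 1.65 to 2.70, and its factor *Pax8* was at or near 0. The part of these differences in the rise of *Scgb3a1*, *Muc5b*, *Scgb3a2* and *Spdef* was not tested.

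**Figure D5:**
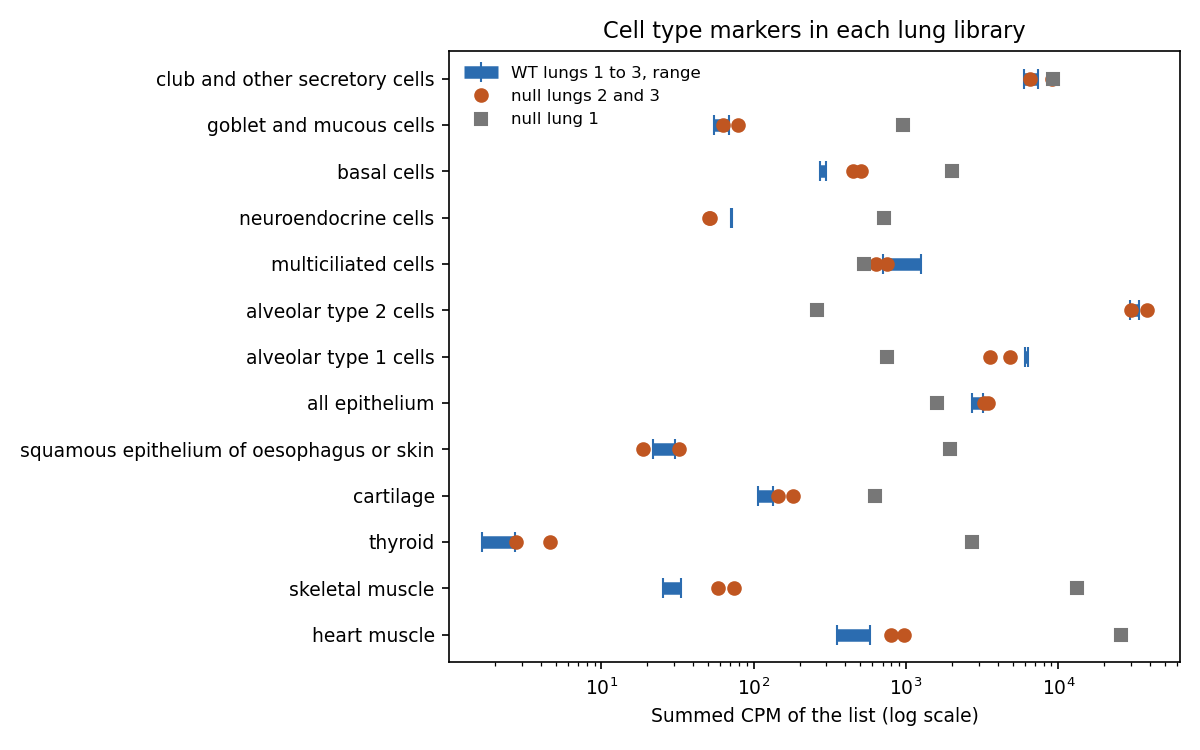
Summed CPM of the genes of 13 cell type lists on a log scale. Blue bars span the 3 WT lungs, orange circles are null lungs 2 and 3 and grey squares null lung 1. Null lung 1 lies far below the others for alveolar type 2 cells (259 CPM) and above them for thyroid, skeletal muscle and heart muscle.

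In liver, none of the 9 genes exceeded 4.40 CPM and edgeR tested only *Trp63*, which was not called. *Muc5b* had 0 or 1 read and *Sox2* 0 reads in every liver. *Scgb1a1* had 5, 142 and 4 reads in WT livers 1 to 3 and 1, 17 and 7 in null livers, and *Scgb3a2* 16, 104 and 3 against 2, 10 and 9. WT liver 2, which had most reads of both, also read 30.7 CPM of the lung gene *Sftpc*, against 0.113 to 4.25 CPM in the other livers. *Trp63* had 10, 5 and 1 reads in WT and 50, 17 and 4 in null livers, with a log2 fold change of 2.14 (SE 0.932, 95% interval -0.03 to 4.31, adjusted p = 0.126 by edgeR). Null liver 1, which had the highest *Trp63*, read 2616 CPM of *Acta1* against 0.960 to 1.78 in the other livers. Without that liver the log2 fold change of *Trp63* was 0.99 (adjusted p = 0.399 by edgeR). The part of other tissues in the reads of WT liver 2 and null liver 1 was not tested. *Spdef* had 7, 5 and 3 reads in WT and 9, 17 and 17 in null livers, too few for the filter. Over all genes, 26.9% of 14343 were called in liver.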

How the data were processed

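Lungs and livers of newborn WT and null mice were sequenced by the authors as stranded, polyadenylated mRNA libraries with paired reads of 75 bp. The authors deposited raw counts, whole numbers of reads per gene symbol without normalization, 1 table for each of the 12 libraries. The submitters' processing notes name FastQC, STAR 2.5.2a, DESeq2 and the build mm10. The counting program, annotation and strand setting are not given in the sources used here, so reads shared by overlapping or closely related genes may be assigned in more than 1 way. There were 27 gene names turned into dates, which were tested but not named.

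Groups and replicate numbers were taken from the sample labels. The counts were tested with edgeR 4.0.16 in R 4.3.3 (filterByExpr at a minimum count of 10, TMM factors, quasi-likelihood test, Benjamini-Hochberg adjustment over all genes tested). Calls required an adjusted p below 0.05 together with a fold change of 1.2 or more. The 3 WT lungs were compared with null lungs 2 and 3, and the 3 WT with the 3 null livers. Standard errors were taken from the F statistic and 95% intervals from the t distribution of the same test. Single ratios were compared by two-sided exact permutation tests. TMM factors were computed over the 6 lungs and over the 6 livers separately, so lung and liver CPM were not tested against each other. Exon lengths and positions were taken from GENCODE M21 on GRCm38. The edgeR and DESeq2 fits of 5 lungs, 6 lungs and 6 livers were also run on simulated counts. The permutation test, the replicate block and the fits with a further library left out were not. No pair of libraries of a group agreed within sampling noise (lowest chi-square 14.7 per gene), and none was counted as a copy.

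Markers of 6 airway lists and 17 other cell type or tissue lists were described by counts, and at most 3 rises and 3 falls were named per list if they were called and averaged 1 CPM or more. Genes outside this rule, such as *Cyp2f2*, *Muc5ac*, *Chga* and *Nkx2-1*, were named after their values were seen, and some genes that the rule would name are not reported here. The genes and lists were chosen with earlier results of these data known. Alternatives were DESeq2 1.42.0, its size factors or upper-quartile factors in edgeR, other filters on low counts, no minimum fold change, all 6 lungs, a block for the replicate number, and dropping each library. The likeness of genes over 5 lungs and the level relative to epithelial genes were added after the data were seen. Depth ranged from 26759463 to 42914295 reads, so 3 reads equalled 0.0702 to 0.113 CPM, and low levels such as those of *Krt5* carry a wide counting error.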

Additional observations from a re-analysis of the deposited data

How the results depend on the processing

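The counts of genes called in lung depended on null lung 1. Of the 9 airway genes 4 were called without it, 0 with all 3 null lungs, 2 by DESeq2 on all 6 lungs and 0 with the replicate block on all 6 lungs, where 4 had an unadjusted p under 0.05, beside 17.6% of all genes. Of the 91 genes of the airway lists tested 39 were called without it (42.9%, beside 37.0% of all genes), the 4 airway genes among them. With all 6 lungs edgeR called 0 of the list genes, beside 0.327% of all genes, and DESeq2 18, beside 11.8%. DESeq2 gave no adjusted p to *Scgb3a1*, *Muc5b*, *Trp63*, *Krt5* and *Calca* on all 6 lungs. DESeq2, its size factors, upper-quartile factors, the other filters and no minimum fold change called 4 of the 9 genes without null lung 1. Leaving out each library in turn gave 3 to 4 called genes in lung, and each fit without null lung 2 or 3 assumes that the lone null library varies like the others. Over all genes 5881 were called, and 3457 without WT lung 3, 51 with all 6 lungs and 2355 by DESeq2 on all 6 lungs. The median log2 fold change of all genes by DESeq2 on all 6 lungs was 0.12.

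The sign of *Scgb1a1* was reversed with all 3 null lungs (-0.44), DESeq2 on all 6 lungs (-0.41), upper-quartile factors (-0.0103), the replicate block on all 6 lungs (-0.94) and without null lung 2 (-0.20), and over all lungs left out in turn it ran from -0.20 to 0.31. That of *Calca* was reversed with all 3 null lungs (2.43), the replicate block on all 6 lungs (1.06) and without null lung 2 (0.09) or WT lung 3 (0.0888), and over all lungs left out in turn it ran from -0.16 to 0.09. No value of either passed the test, and the cause was not tested.

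WT and null samples of the same replicate number were different animals. Their deviations from the group means correlated at -0.04, -0.04 and 0.10 in lung and -0.03, -0.00155 and 0.16 in liver. With 3 libraries per group, and null lung 1 among them, these values cannot show whether a litter or day was shared. With the replicate block, 4 genes were still called in lung without null lung 1, 5697 genes in all, and 1 gene in liver, *Trp63* (log2 fold change 2.04, adjusted p = 0.0289 by edgeR). Leaving out each liver gave 0 to 1 called genes, the 1 being *Spdef* without null liver 1 (log2 fold change 1.81, adjusted p = 0.0306 by edgeR). In liver 0 of these genes had an unadjusted p under 0.05 by edgeR and 3 by DESeq2, which called 0.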

Other observations

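RNA of markers of other lung cells differed as well in null lungs 2 and 3. Of 8 alveolar type 1 genes 0 were higher and 6 lower, beside 19.0% of all genes called lower (median log2 fold change -0.78). *Akap5* stood at 0.129, *Rtkn2* at 0.369 and *Pdpn*, a membrane glycoprotein of these cells, at 0.422 of WT. *Ager* and *Aqp5* did not pass (log2 fold change 0.08 and -0.07, adjusted p = 0.712 and 0.685 by edgeR). Of 12 genes of multiciliated cells 4 were higher and 1 lower (median 0.45), beside 18.0% and 19.0% of all genes. *Ccdc153* rose 2.23-fold (adjusted p = 0.00883 by edgeR), while *Tppp3* fell to 0.678 of WT (adjusted p = 0.0215). *Foxj1*, the factor that drives motile ciliogenesis, had a log2 fold change of -0.24 (adjusted p = 0.470 by edgeR). With all 6 lungs edgeR called 0 genes of both lists, beside 0.327% of all genes.

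Genes whose log2(CPM + 0.5) followed the airway genes over the 6 lungs were ranked among 14350 genes, as a description that rests on the level in null lung 1. Those most like *Scgb1a1* were *Retnla*, *Col13a1* and *Atp7a* (r at least 0.999), and *Retnla* read 1.73 CPM in null lung 1 and 222.3 to 528.7 CPM in the other lungs. *Scgb3a1* was followed most closely by *Cyp46a1*, *Taf1d* and *Tmem255a*, *Scgb3a2* by *Aga*, *Plod1* and *Abtb2*, and *Muc5b* by *Lrp8*, *Ncmap* and *Adcy5*. Genes most like *Trp63* were *Sprr3*, *Atp1b4* and *Pitx1*, and genes most like *Krt5* were *Myh1*, *Myh4* and *Tnmd*, which include myosins of skeletal muscle. The list for *Calca* was *Pianp*, *Gnb3* and *Csta1*, and for *Sox2* it was *Oit1*, *Pfn2* and *Tmem65*. Over the 5 lungs without null lung 1, *Retnla* was again among the 3 genes most like *Scgb1a1* (r = 0.989) and *Aga* among those most like *Scgb3a2* (r = 0.999), while *Krt13* headed the latter (r = 0.999).

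Over the same 5 lungs *Muc5b* correlated with *Spdef* at 0.968 and with *Scgb3a1* at 0.944, and *Scgb1a1* correlated with *Scgb3a1* at -0.05. The 5 libraries fall into the genotypes, so these values describe the same differences as the report.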
